A study of Mus musculus with 8 samples.

Results

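The dominant clonotypes of the tumor T cell repertoires are 33 pairs of TCRα (TRA) and TCRβ (TRB) chains that each made up at least 1% of the counted CD8+ T cells of a tumor. A clonotype is a pair of CDR3 amino acid sequences, the CDR3 being the stretch of each chain where the rearranged gene segments meet. The 33 were chosen by their tumor frequency, 0.01 or more in the deposited clonotype tables of 5 tumors, out of 22212 tumor clonotypes (0.149%). All cells with the same pair of chains and no multiplet mark in the matching barcode table were assigned to them, which gave 5991 of 33075 counted tumor cells or 18.1%. Each is named by its animal and its rank in the tumor, so that TCR-160C.4 is the fourth most frequent clonotype of the tumor of mouse-160C; plots leave out the prefix TCR. Because frequency chose them, their sizes are a description, and no test was made of them.

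The study sequenced receptors of CD8+ T cells from the thymus and spleen of tumor-free mice and from the thymus and tumor of mice with subcutaneous B16-OVA or B16-F10 melanoma. The question was whether the same clonotypes occur in the thymus and in the tumor of 1 animal when PD-1 is absent. The animals were adult C57BL/6 mice of both sexes, either Pdcd1fl/fl without Cre or Pdcd1 cKO, in which a Cre under the CD8-specific E8I element removes floxed Pdcd1 after positive selection in the thymus. Both genotypes therefore carry the floxed alleles, and B16-OVA differs from B16-F10 by a model antigen, ovalbumin. The labels name 8 sublibraries of 1 multiplexed experiment and do not say which genotype or tumor a table belongs to. Values are therefore given per table and animal, no group was formed, and genotype, tumor model and animal cannot be told apart.

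A T cell builds its receptor in the thymus by joining V, D and J gene segments for TRB and V and J segments for TRA, with bases trimmed and added at random where they meet. The joined sequence is passed on to every daughter cell, so cells with the same pair of CDR3 sequences are usually read as descendants of 1 cell, and a clone that has met its antigen can expand. TRB is rearranged first and as a rule on only 1 chromosome. TRA rearrangement continues on both chromosomes until a cell is selected, so many T cells carry a further TRA chain, which need not be functional. Tumor-infiltrating CD8+ T cells are known for a few strongly expanded clones.

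All 14 tables of 7 animals together held 66914 counted cells, meaning barcodes with both chains and no multiplet mark. The 5 tumor tables held 1812 (mouse-160A) to 13283 (mouse-164C) of them, and the thymus tables of the same animals 2175 to 7575. There is 1 table per animal and tissue, so there are no replicates, and intervals given below are exact (Clopper–Pearson) 95% intervals that cover counting error only. Tumor CD8+ cells had been enriched with magnetic beads, and the data hold receptor chains and no other transcripts, so that label could not be checked against CD8 genes. The counted TRA of 1 member, described below, was out of frame, so an αβ receptor was not shown for that member. By definition, all 5991 cells carried a TRA and a TRB CDR3, whether in frame or not. None of these cells had the TRAV11 or TRAV11D with TRAJ18 chain of invariant NKT-like cells or the TRAV1 with TRAJ33 chain of MAIT-like cells. Of the 27084 other counted tumor cells, 41 (0.151%) had the NKT-like chain and 0 the MAIT-like chain. Cells of a clonotype share their chains, so the absence in members rests on 33 clonotypes and not on 5991 separate cells.

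The nucleotide CDR3 sequences of the 3 most frequent clonotypes of each tumor, or of all where fewer passed, show what these receptors are made of. In all sequences below, lower case at the left is the part aligned to the V segment, lower case at the right is the part aligned to the J segment, and capitals mark the bases in between, which for TRB include the D segment. The V part was found letter for letter in the named gene of the GRCm39 genome for 61 of 64 member chains checked and the J part for 62 of 64. The V parts not found were those of the TCR-160A.5, TCR-160A.10 and TCR-164C.1 TRB chains, and the J parts those of the TCR-160A.8 and TCR-160C.12 TRA chains.
TCR-160A.1 TRA: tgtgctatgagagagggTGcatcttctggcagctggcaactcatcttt
TCR-160A.1 TRB: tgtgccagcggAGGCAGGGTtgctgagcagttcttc
TCR-160A.2 TRA: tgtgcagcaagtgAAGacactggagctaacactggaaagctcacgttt
TCR-160A.2 TRB: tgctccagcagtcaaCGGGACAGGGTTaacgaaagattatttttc
TCR-160A.3 TRA: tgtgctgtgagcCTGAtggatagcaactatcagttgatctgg
TCR-160A.3 TRB: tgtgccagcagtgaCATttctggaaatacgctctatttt
TCR-160B.1 TRA: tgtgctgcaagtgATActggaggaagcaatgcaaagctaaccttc
TCR-160B.1 TRB: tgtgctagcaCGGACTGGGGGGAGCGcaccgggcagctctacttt
TCR-160C.1 TRA: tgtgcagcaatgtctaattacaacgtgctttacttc
TCR-160C.1 TRB: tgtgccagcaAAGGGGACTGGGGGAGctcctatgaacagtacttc
TCR-160C.2 TRA: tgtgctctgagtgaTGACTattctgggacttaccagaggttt
TCR-160C.2 TRB: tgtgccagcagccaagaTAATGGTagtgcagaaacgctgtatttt
TCR-160C.3 TRA: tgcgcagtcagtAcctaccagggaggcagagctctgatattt
TCR-160C.3 TRB: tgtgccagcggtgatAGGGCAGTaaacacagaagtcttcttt
TCR-164B.1 TRA: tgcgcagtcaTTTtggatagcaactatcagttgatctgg
TCR-164B.2 TRA: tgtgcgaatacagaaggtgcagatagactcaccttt
TCR-164B.1 and TCR-164B.2 TRB: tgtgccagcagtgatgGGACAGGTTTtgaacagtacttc
TCR-164B.3 TRA: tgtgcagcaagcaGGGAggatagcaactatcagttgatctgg
TCR-164B.3 TRB: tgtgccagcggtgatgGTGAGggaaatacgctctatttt
TCR-164C.1 TRA: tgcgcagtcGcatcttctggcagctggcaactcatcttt
TCR-164C.1 TRB: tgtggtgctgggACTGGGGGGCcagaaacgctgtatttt
TCR-164C.2 TRA: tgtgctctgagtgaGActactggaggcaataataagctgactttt
TCR-164C.2 TRB: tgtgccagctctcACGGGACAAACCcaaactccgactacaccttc

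Over the 33 members, 0 to 11 bases lay between V and J in TRA (median 2) and 3 to 16 in TRB (median 10). In TCR-160C.1 and TCR-164B.2 the V and J parts of the TRA chain met with no base in between. These lengths were near those of the other tumor clonotypes, whose table medians were 2 or 3 bases for TRA and 10 for TRB. In 23 members every annotated cell had the same pair of nucleotide sequences, and in 32 only 1 pair was seen in 2 or more cells. The exception was TCR-160C.4, with 2 pairs seen in 2 or more cells. For TCR-164C.1 and TCR-164C.2 the annotation held here covers 257 of 827 and 216 of 741 cells. The CDR3 lengths ranged from 10 amino acids (TCR-160A.6) to 16 for TRA and from 11 (TCR-160A.6) to 15 for TRB. Mean TRA length was higher in members than in other clonotypes in 4 of 5 tumors and mean TRB length in 2 of 5. The median TRB difference over tumors was -0.303 amino acids over clonotypes and 0.0789 when clonotypes were weighted by cells.

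The weight of the dominant clonotypes differed strongly between tumors. In mouse-160A, 10 clonotypes held 1051 of 1812 cells or 58.0% (95% interval 55.7 to 60.3). In mouse-160C, 15 clonotypes held 1856 of 3757 cells or 49.4% (47.8 to 51.0). These were the tumors with the fewest counted cells and the most members. In mouse-164B, 5 clonotypes held 1380 of 5892 cells or 23.4% (22.3 to 24.5). Only 2 clonotypes passed in mouse-164C, and they held 1568 of 13283 cells or 11.8% (11.3 to 12.4). In mouse-160B a single clonotype passed, with 136 of 8331 cells or 1.63% (1.37 to 1.93), and 95.3% of the clonotypes of that tumor were seen in 1 cell. These intervals cover counting error within a tumor only, and the shares rest on the values that chose the members. The threshold stood for more cells in the tumors with more counted cells.

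Member sizes ran from 30 cells (TCR-160A.10) to 827 cells (TCR-164C.1), with a median of 104 cells, and from 1.01% to 12.4% of the tumor, with a median of 3.41%. The most frequent was TCR-160A.1 with 225 cells or 12.4% (10.9 to 14.02), followed in that tumor by TCR-160A.2 with 206 cells or 11.4% (9.94 to 12.9) and TCR-160A.3 with 158 cells or 8.72% (7.46 to 10.1). The intervals of TCR-160A.1 and TCR-160A.2 overlap. In mouse-164B, TCR-164B.1 had 647 cells or 10.98% (10.2 to 11.8), TCR-164B.2 had 361 cells or 6.13% (5.53 to 6.77) and TCR-164B.3 had 201 cells or 3.41% (2.96 to 3.91). In mouse-160C, TCR-160C.1 had 356 cells or 9.48% (8.56 to 10.5), TCR-160C.2 had 318 cells or 8.46% (7.59 to 9.40) and TCR-160C.3 had 241 cells or 6.41% (5.65 to 7.25). The intervals of TCR-160C.1 and TCR-160C.2 also overlap. The sizes of TCR-164B.1 and TCR-164B.2 are not separate. They share a TRB, and 871 of the 1008 cells with it and either TRA carried both TRA chains. In mouse-164C, TCR-164C.1 had 6.23% (5.82 to 6.65) and TCR-164C.2 had 741 cells or 5.58% (5.19 to 5.98). At the edge of the threshold, TCR-160C.14 and TCR-160C.15 had 38 cells each (1.01%) and TCR-160C.13 had 39 cells (1.04%). Just outside it lay the third clonotype of mouse-164C with 132 cells (0.994%), the sixth of mouse-164B with 57 cells (0.967%) and the third of mouse-160B with 79 cells (0.948%).

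Each sublibrary is a separately indexed portion of the same pool of cells, so it serves as a check on how evenly a clonotype was sampled. All but 1 of the members were found in all 8 sublibraries, and TCR-160A.10 was found in 7. The share of TCR-160A.1 was 8.24% at the lowest, 11.7% at the median and 18.6% at the highest sublibrary. That of TCR-164B.1 was 9.47%, 10.9% and 12.8%, and that of TCR-164C.1 was 5.17%, 6.18% and 7.08%. Over all members, TCR-160A.1, from the tumor with the fewest cells, had the widest range in percentage points. No barcode occurred in more than 1 table.

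**Figure D1:**
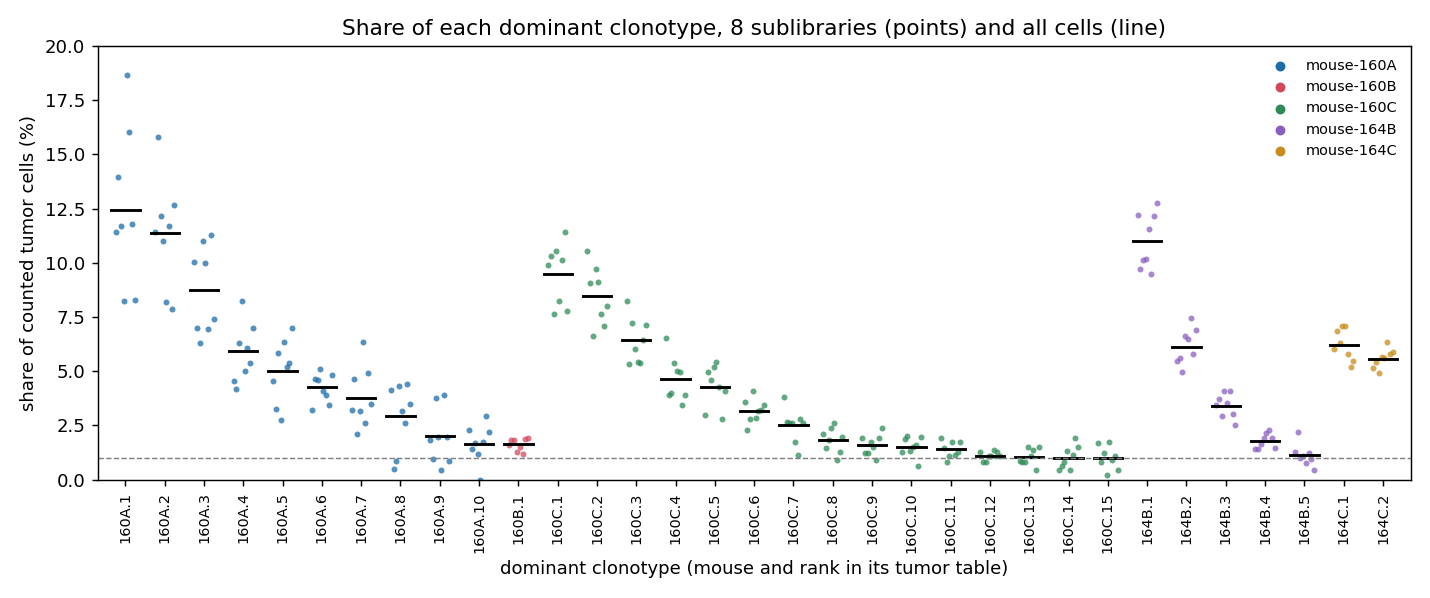
Share of counted tumor cells (%, vertical axis) of each of the 33 dominant clonotypes (horizontal axis), with a point for each of the 8 sublibraries, a black line for all cells of the tumor and a dashed line at the threshold of 1%. The clonotypes of mouse-160A reach from 12.4% to 1.66%, and the single clonotype of mouse-160B lies at 1.63%.

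Cells of dominant clonotypes carried more receptor transcripts than the other cells of the same tumor. The median TRA transcript count per cell was 4 in mouse-160A, 7 in mouse-160B and 5 in mouse-160C, mouse-164B and mouse-164C, against 2 in the other cells of all 5 tumors. For TRB it was 7 against 4 in mouse-160A, 9.5 against 3 in mouse-160B, 5 against 3 in mouse-160C and mouse-164B, and 4 against 2 in mouse-164C. Pooled over the members of a tumor, member cells were higher in 5 of 5 tumors for both chains. Against clonotypes of 2 or more cells below the threshold, TRA was higher in 5 of 5 tumors and TRB in 4 of 5, with members of mouse-164C at 4 and those clonotypes at 5. Reads pointed the same way for TRA in 5 of 5 tumors, while median TRB reads in mouse-164C were lower in members, 78 against 142. Not every single member lay above the other cells of its tumor. For TRB, TCR-160A.2 (2 against 4) and TCR-164B.4 (2 against 3) lay below, and TCR-160C.2 (3) and TCR-164C.1 (2) were equal. For TRA, TCR-160C.12 (1 against 2) lay below and TCR-164B.4 (2) was equal. Cells of a clonotype are not replicates, so no test was made.

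Within the members the balance of the chains varied. The TRB median was above the TRA median in 21 members, below it in 7 and equal in 5. The highest TRA median was 11 transcripts in TCR-160A.7, and the highest TRB median was 11.5 in TCR-160A.9. At the low end of TRB stood TCR-160A.2 (TRBV23), TCR-164C.1 (TRBV20) and TCR-164B.4 (TRBV12-1), each with a median of 2 transcripts. TCR-160A.2 and TCR-164C.1 had TRA medians of 6 and 7, so TRA transcripts outnumbered TRB transcripts in them, whereas TCR-164B.4 had few transcripts of both chains, with a TRA median of 2. In TCR-164C.1 a constant gene was assigned to the TRB chain in 0.389% of annotated cells, against 96.3% in TCR-164C.2 of the same tumor. The share was also low in TCR-160C.12 (2.44%), TCR-160B.1 (18.4%) and TCR-160A.4 (25.2%), and its median over the members was 89.6%. The lowest TRA median was 1, in TCR-160C.12, where 87.8% of cells rested on 1 TRA transcript.

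**Figure D2:**
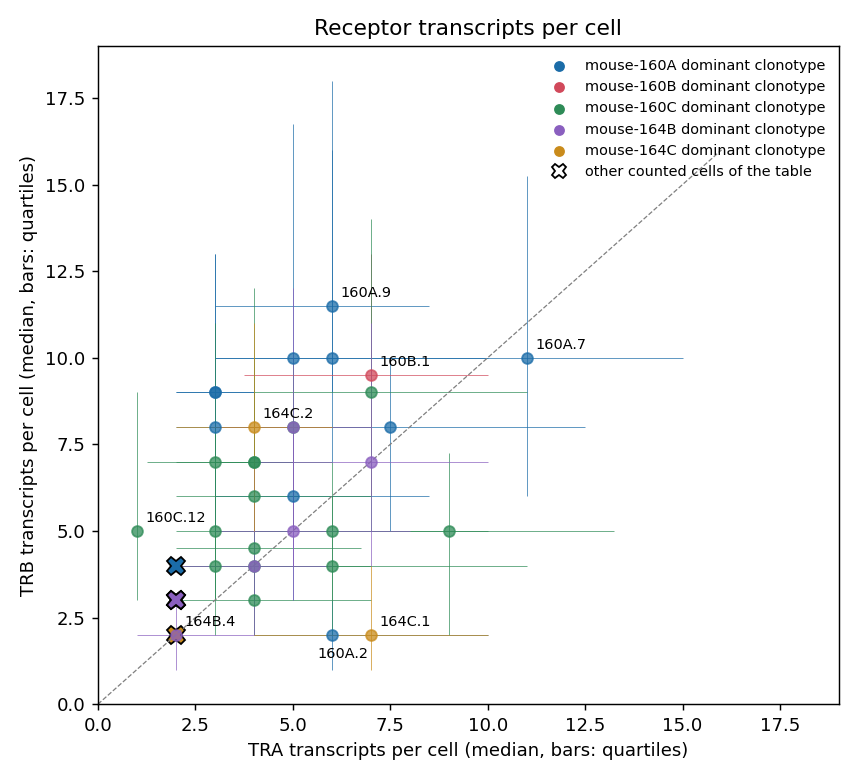
Median TRA transcripts per cell (horizontal axis) and median TRB transcripts per cell (vertical axis) of the 33 dominant clonotypes (circles, thin bars from the lower to the upper quartile) and of the other counted cells of each tumor (crosses). All crosses lie at a TRA median of 2 with TRB between 2 and 4, those of mouse-160B, mouse-160C and mouse-164B on 1 spot, and most circles lie to the right of and above them.

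A further TRA chain was present in some cells of every member, in 7.55% (TCR-160A.8) to 90.0% (TCR-164B.2) of cells with a median of 16.2%. In 5 members it was present in over 50% of cells. These were TCR-164B.1 with 86.2% (83.3 to 88.8), TCR-164B.2 with 90.0% (86.5 to 92.9), TCR-160C.5 with 80.7% (73.8 to 86.5), TCR-160B.1 with 72.8% (64.5 to 80.1) and TCR-160C.15 with 65.8% (48.6 to 80.4). In the other counted cells the share was 21.0% to 25.4% per tumor. All members of a tumor pooled were above the others in 3 tumors and below them in 2, with 18.0% against 25.4% in mouse-160A and 69.5% against 21.0% in mouse-164B. The median difference over tumors was 0.929 percentage points, and it was -5.26 when at least 2 transcripts were required in both chains.

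In 2 pairs of members the TRB chain was the same and most cells carried both TRA chains. TCR-164B.1 and TCR-164B.2 have the same TRB nucleotide sequence. Of the 1008 cells that carried this TRB with either TRA chain, 871 or 86.4% (84.1 to 88.5) carried both, with a median of 5 transcripts of the TCR-164B.1 chain and 3 of the TCR-164B.2 chain. Counted once, this receptor held 17.1% of the counted cells of mouse-164B, more than any clonotype of the deposited tumor tables. TCR-160C.5 and TCR-160C.15 share a TRBV14 chain in the same way, and their sequences are shown because only the TRA lines differ.
TCR-160C.5 TRA: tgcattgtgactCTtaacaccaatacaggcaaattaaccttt
TCR-160C.15 TRA: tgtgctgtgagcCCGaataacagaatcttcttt
TCR-160C.5 and TCR-160C.15 TRB: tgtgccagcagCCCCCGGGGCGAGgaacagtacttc

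Of 199 cells with this TRB and either TRA, 152 or 76.4% (69.9 to 82.1) carried both, with medians of 7 and 3 transcripts. Together they held 5.30% of the counted cells of mouse-160C. In mouse-160B, 142 cells carried the TRB of TCR-160B.1 with its own TRA or with its most frequent further TRA (TRAV16N with TRAJ48), and 75 of them or 52.8% (44.3 to 61.2) carried both, with medians of 9 and 2 transcripts. With members that share a TRB counted once, 31 dominant receptors remain. In 7 other members the most frequent further TRA chain differed from the member's own by 1 amino acid, as in TCR-164C.2, where 128 of 741 cells or 17.3% carried it with a median of 1 transcript against 5 for the own chain.

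A further TRB chain was present in 10.7% (TCR-160A.2) to 77.9% (TCR-160A.7) of member cells, with a median of 22.8%. Members were below the other cells in 4 of 5 tumors. In TCR-160A.7, 49 of 68 cells or 72.1% (59.9 to 82.3) carried the same further TRB, a TRBV4 chain with a median of 2 transcripts against 12 for the own TRBV13-2 chain. No other member had a further TRB shared by so many of its cells. The next was TCR-160C.3 with 57 of 241 cells or 23.7% (18.4 to 29.5), where the further TRB differed from the own chain by 1 amino acid and had a median of 1 transcript.

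The TRBV4 chain of TCR-160A.7 belongs to a set of like receptors in several animals. TCR-160A.7, TCR-160C.4 and TCR-160C.8 have the same TRA CDR3 peptide of 14 amino acids, made with TRAJ12 (GRCm39 chromosome 14, 54444010 to 54444067). In TCR-160A.7 the V segment was called as TRAV8-1 (chromosome 14, 53707213 to 53707689) and in the others as TRAV8D-2 (chromosome 14, 53279885 to 53280348). The nucleotide sequences differ by 1 base between TCR-160A.7 and TCR-160C.4, by 1 base between TCR-160C.4 and TCR-160C.8, and by 2 bases between TCR-160A.7 and TCR-160C.8. The same peptide was thus encoded by a different nucleotide sequence in each of these members. TCR-160C.4 and TCR-160C.8 also both use TRBV4 (chromosome 6, 41036328 to 41036820), and their TRB CDR3 peptides begin with the same 7 amino acids. The TRA chains are shown with the TRB chains that go with them in mouse-160A, mouse-160B and mouse-160C.
TCR-160A.7 TRA: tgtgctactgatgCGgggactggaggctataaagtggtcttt
TCR-160C.4 TRA: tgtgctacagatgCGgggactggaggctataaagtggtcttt
TCR-160C.8 TRA: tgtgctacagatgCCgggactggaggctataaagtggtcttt
TCR-160A.7 TRB: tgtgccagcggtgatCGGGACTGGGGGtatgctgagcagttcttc
TCR-160A.7 further TRB: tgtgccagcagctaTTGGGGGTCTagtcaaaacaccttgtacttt
TCR-160C.8 TRB: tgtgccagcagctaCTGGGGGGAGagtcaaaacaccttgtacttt
mouse-160B TRB with TRBJ2-4: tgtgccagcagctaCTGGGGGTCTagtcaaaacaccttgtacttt
mouse-160C further clonotype TRB with TRBJ2-4: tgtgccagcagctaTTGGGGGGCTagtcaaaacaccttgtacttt
TCR-160C.4 TRB: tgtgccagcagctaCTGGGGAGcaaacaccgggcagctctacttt
mouse-160B TRB with TRBJ2-2: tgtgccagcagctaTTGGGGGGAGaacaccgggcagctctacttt

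The further TRB of TCR-160A.7 uses TRBV4 and TRBJ2-4, begins with the same 7 amino acids and differs from the TRB of TCR-160C.8 by 1 of 15 amino acids and by 4 bases. In mouse-160B, where the TRA peptide is in no dominant clonotype, 19 cells paired it with a TRBV4 and TRBJ2-2 chain that differs from the TRB of TCR-160C.4 by 1 amino acid and 4 bases. A further 15 cells of mouse-160B paired it with a TRBV4 and TRBJ2-4 chain whose peptide is identical to the further TRB of TCR-160A.7 and whose nucleotide sequence differs from it by 1 base. In mouse-160C, besides the 174 cells of TCR-160C.4 and the 68 cells of TCR-160C.8, the TRA peptide was paired with such TRBV4 chains in 14, 12 and 5 cells. Another 13 cells of that tumor joined a TRBV4 chain with this beginning to a TRA 1 amino acid away. These chains were looked up after the values of the members had been seen.

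Counted over tables, 513 cells in 104 table-by-table clonotypes carried the TRA peptide, and 311 of them in 11 clonotypes had a TRB with this TRBV4 beginning. This beginning was read off TCR-160C.4 and TCR-160C.8, which with 174 and 68 cells hold most of the 273 such cells of mouse-160C, so the count is a description. By clonotype, 5 of the 43 with the peptide had such a TRB in mouse-160C, 2 of 17 in mouse-160B and 2 of 11 in mouse-160A. Among the clonotypes without the peptide, 0% to 0.812% per table had a TRB with this beginning and 2.59% to 4.30% used TRBV4. In mouse-160A 2 of 81 cells carried such a chain as their first TRB, the TCR-160A.7 cells being counted under TRBV13-2. Elsewhere the TRA peptide with such a TRB was found in 1 cell of mouse-155A thymus and 1 cell of mouse-164C tumor. That cell of mouse-164C had 1 transcript of each chain and the nucleotide TRB sequence of TCR-160C.8.

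By tumor, the TRA peptide was carried by 4.47% of counted cells in mouse-160A, 0.588% in mouse-160B and 9.32% in mouse-160C. Most of these cells were members chosen by their size, 68 of 81 in mouse-160A and 174 and 68 of 350 in mouse-160C, and without the members the shares were 0.717% and 2.87%. The peptide was carried by 0% to 0.242% in the other 11 tables, including the thymus tables of the same 3 animals, where it was on 0, 3 and 2 cells. Over all tables it was encoded by 8 nucleotide sequences, of which those of TCR-160C.4, TCR-160A.7 and TCR-160C.8 were seen in 229, 88 and 88 cells. The V copies of this locus are near-identical, so the calls of TRAV8-1, TRAV8D-2 and TRAV8N-2 are uncertain.

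**Figure D3:**
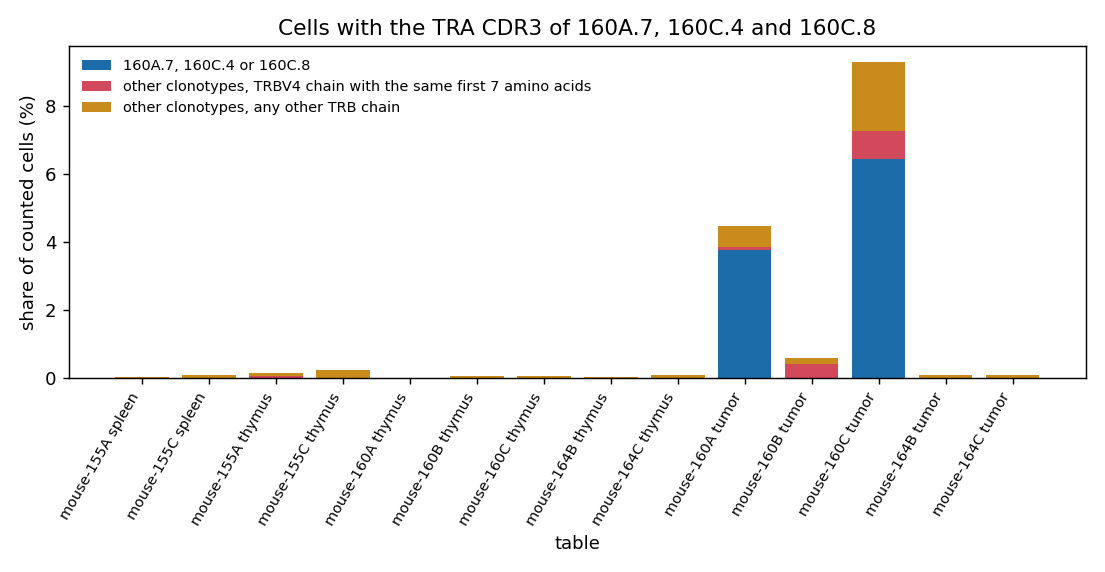
Share of counted cells (%, vertical axis) with the TRA CDR3 peptide of TCR-160A.7, TCR-160C.4 and TCR-160C.8 in each of the 14 tables (horizontal axis), split by the TRB chain counted with it. The tumors of mouse-160A (4.47%), mouse-160B (0.588%) and mouse-160C (9.32%) stand above the other tables, none of which exceeds 0.242%. Without the member cells the shares of mouse-160A and mouse-160C are 0.717% and 2.87%.

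The V and J segments of the 33 members were of many kinds, with the TRBV13 family the most common. Of the 33, 18 used a TRBV13 gene, or 54.5%, holding 49.2% of member cells. By tumor this was 8 of 10 in mouse-160A, 6 of 15 in mouse-160C and 4 of 5 in mouse-164B, and 0 of 1 in mouse-160B and 0 of 2 in mouse-164C. Among the other clonotypes of these tumors the family made up 33.5%, 19.3%, 24.6%, 25.6% and 23.8% in the same order, while the range over thymus tables was 26.4% to 29.6%. Clonotypes of mouse-160A that carried no chain of a member were at 26.2%. The members of 1 tumor share an animal and so are not independent, and the difference was not tested. Within the family, TRBV13-1 (chromosome 6, 41092941 to 41093402) was used by 9 members, TRBV13-2 by 6 and TRBV13-3 by 3. TRBV12-1 was used by 4 (12.1%), and TRBV4, TRBV14 and TRBV29 by 2 each (6.06%). Of the other clonotypes per tumor, TRBV13-1 made up 5.08% to 19.1%, TRBV13-2 8.74% to 11.4% and TRBV13-3 3.01% to 6.89%. TRBV12-1 made up 7.31% to 10.1% of them, TRBV4 2.78% to 3.32%, TRBV14 4.86% to 6.27% and TRBV29 5.80% to 9.24%. Both TRBV14 members carry the same TRB, and so do TCR-164B.1 and TCR-164B.2 among those with TRBV13-1. With members that share a TRB counted once, the TRBV13 family made up 54.8%.

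Among J segments of TRB, TRBJ2-7 was used by 9 members or 27.3%, against 19.9% to 20.4% of the other clonotypes per tumor. These members include TCR-160C.5 with TCR-160C.15 and TCR-164B.1 with TCR-164B.2, which share a TRB, so fewer distinct TRB chains use it. TRBJ2-1 was used by 5, against 10.6% to 15.7%. These differences were not tested. For TRA, TRAV12-1 was used by 5 members from 3 tumors, TRAV3-1 by 4 and TRAV6-5 by 3, and TRAJ12 by 4, TRAJ33 by 3 and TRAJ56 by 3. Of the other clonotypes per tumor, TRAV12-1 made up 5.80% to 11.5%, TRAV3-1 5.92% to 9.06% and TRAV6-5 0.430% to 5.40%. The J segments TRAJ12, TRAJ33 and TRAJ56 made up 3.20% to 6.83%, 1.99% to 5.10% and 1.29% to 2.34% of them. Besides the shared peptide, TCR-160A.2 and TCR-160A.4 had a run of 12 TRA amino acids in common, both with TRAJ52, and TCR-160A.1 and TCR-164C.1 a run of 10, both with TRAJ22. In all, 7 members shared a whole chain with another member.

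**Figure D4:**
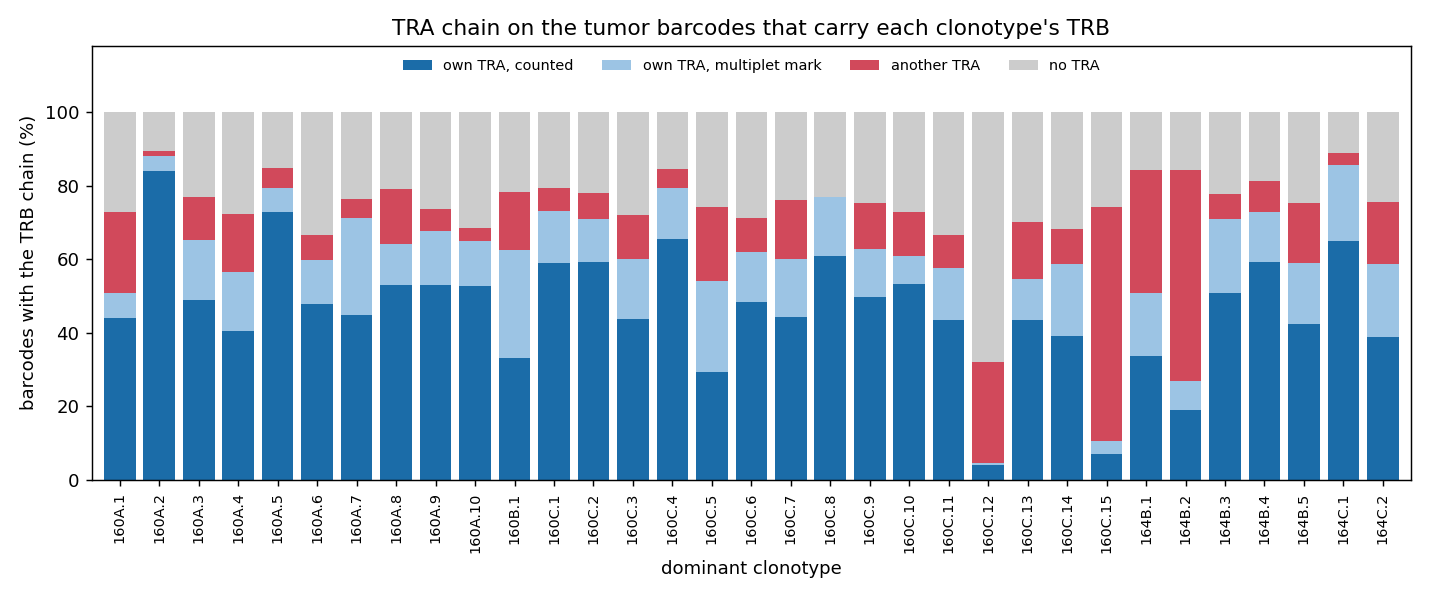
Tumor barcodes that carry the TRB chain of each dominant clonotype, as shares (%) with its own TRA and counted, with its own TRA and a multiplet mark, with another TRA, or with no TRA. TCR-160A.2 has its own TRA on 88.2% of these barcodes and TCR-160C.12 on 4.36%.

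The clonotype tables count only barcodes with both chains and no multiplet mark, and this touched the members unevenly. The TRB of a member was found without any TRA on 10.6% (TCR-160A.2) to 68.2% (TCR-160C.12) of its tumor barcodes, with a median of 24.5%. Multiplet marks were on 2203 of 8194 barcodes with both chains of a member, or 26.9% (25.9 to 27.9), from 4.63% in TCR-160A.2 to 46.9% in TCR-160B.1. The next highest were TCR-160C.5 (45.6%) and TCR-160A.7 (37.0%). These 3 members had a frequent further chain, but so did TCR-164B.2, with a further TRA in 90.0% of cells and marks on 29.9% of barcodes, while TCR-160C.14 had a further TRA in 7.89% and marks on 33.3%. The part of further chains in the mark was not tested. Per tumor the marked share was 18.3% to 46.9% in members and 5.97% to 28.3% in other cells, higher in members in 3 of 5 tumors. Those other cells include clonotypes of 1 cell, at 1.28% to 16.4%. Clonotypes of 2 or more cells below the threshold were at 18.8% to 37.5%. Against these, members were higher in 2 tumors and lower in 3. Clonotype size was itself counted after marked barcodes had been left out.

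Chains of dominant clonotypes also turned up in cells counted under other clonotypes. In mouse-160A 27.3% of the other counted cells carried the TRA or the TRB of a member, and in mouse-160C 26.7%, against 4.29% in mouse-164C, 3.48% in mouse-164B and 0.427% in mouse-160B. Cells that paired the TRB of a member with the TRA of another member of its tumor numbered 47 in mouse-160A and 86 in mouse-160C. There were 9 in mouse-164C, 4 in mouse-164B and 0 in mouse-160B. The TRA of TCR-164C.1 occurred with 330 other TRB chains in 372 cells. Cells that carried a member chain under another clonotype had a median of 1 to 3.5 TRA transcripts per tumor, against 4 to 7 in the members. The other cells without a member chain had a TRA median of 2 in every tumor. For TRB the medians were 2 to 5 with a member chain and 2 to 4 without. The source of these mixed pairs was not tested.

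TCR-160C.12 stood apart from the other members. Its TRB (TRBV1 with TRBJ2-2) was on 1033 barcodes of the tumor, more than the TRB of any other member of mouse-160C, but 704 of them carried no TRA and only 4.36% carried the TRA of the clonotype. That TRA has a CDR3 of 35 bases, which is not a multiple of 3, and no constant gene was annotated on it. Its sequences are shown because this is the only member with an out-of-frame CDR3.
TCR-160C.12 TRA: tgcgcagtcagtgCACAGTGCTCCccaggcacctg
TCR-160C.12 TRB: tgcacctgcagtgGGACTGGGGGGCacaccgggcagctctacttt

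The same TRA sequence in amino acid form was found in all 14 tables, on 2452 barcodes as the first and on 1713 as a further TRA. Of its 4797 annotated chains, 0 were in frame and 0 had a constant gene, against 92.1% and 79.2% of all 157654 TRA chains. It was also the most frequent further TRA of TCR-160A.3, in 57 of 158 cells or 36.1%, and of TCR-160C.7, in 26 of 94 cells or 27.7%. The size of TCR-160C.12 in the clonotype table, 41 cells, thus counts few of the barcodes with its TRB. Without this member 32 remain, with the frequencies of the others left as they were.

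In the thymus tables of their own animals, which held 2175 to 7575 counted cells each, 18 cells of the dominant clonotypes were counted. The 5991 cells in the tumors are no measure for this number, because the members were chosen for a high tumor frequency. Of the 33, 3 had a counted cell in the thymus table of the same animal, or 9.09% (1.92 to 24.3), beside 0.689% of all tumor clonotypes. In mouse-160A, mouse-160B and mouse-160C no member was found in the thymus, at a depth where 3 cells would make 0.138%, 0.0521% and 0.0707% of the counted thymus cells. The chance of being seen depends on how many cells a clonotype has, so the share was also taken by tumor size. It was 0.246% (0.184 to 0.322) for clonotypes of 1 tumor cell, 6.43% (4.78 to 8.44) for those of 2 to 4 cells and 18.4% (13.96 to 23.5) for those of 5 or more cells below the threshold. The interval of the dominant clonotypes spans the last pair of values. Whether the classes differ cannot be told from it, because members share animals and the classes pool tumors. In mouse-160C, 0 of 39 clonotypes of 5 or more cells below the threshold were found in the thymus. In mouse-164B, which held 29 of the 50 clonotypes of 5 or more cells found in the thymus, the share was 38.7% (27.6 to 50.6) in that class, and 2 of 5 dominant clonotypes were found.

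The members found in the own thymus were TCR-164B.4 and TCR-164B.5, the smallest of mouse-164B, and TCR-164C.2. The sequences of the mouse-164B pair are shown, as those of TCR-164C.2 were above, because these are the receptors seen on both sides.
TCR-164B.4 TRA: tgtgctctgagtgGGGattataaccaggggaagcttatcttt
TCR-164B.4 TRB: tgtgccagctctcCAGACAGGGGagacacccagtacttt
TCR-164B.5 TRA: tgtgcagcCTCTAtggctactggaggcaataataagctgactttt
TCR-164B.5 TRB: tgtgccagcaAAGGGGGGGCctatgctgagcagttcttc

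TCR-164B.4 had 8 of 7575 thymus cells or 0.106% (0.0456 to 0.208), against 1.77% of the tumor cells. TCR-164B.5 had 9 thymus cells or 0.119% (0.0543 to 0.225), against 1.14% of the tumor cells. TCR-164C.2 had 1 of 6059 thymus cells, with 1 transcript of each chain, against 741 tumor cells. The larger members of mouse-164B, TCR-164B.1 to TCR-164B.3 with 201 to 647 tumor cells, had 0 cells in that thymus. Of the 18 thymus cells, 7 had 2 or more transcripts of both chains, none matched a tumor cell of the clonotype in the later well barcodes and sublibrary, and all 11 that were annotated had the tumor's nucleotide sequences.

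The same pairs in other animals give the background for these counts. There, 20 of the 33 members had a counted cell in a table of another animal, 49 cells in all, beside 0.68% of all tumor clonotypes. Of these 22212 clonotypes, 21161 had 1 tumor cell, and the share was not split by size here. Of the 49 cells, 48 had 1 transcript in at least 1 chain, and none had more than 2 transcripts of either chain. In 11 of them the later barcodes and the sublibrary matched a tumor cell of the same clonotype, and all 47 that were annotated had the same nucleotide sequences. These cells were most numerous for TCR-164B.2 (12 cells) and TCR-164B.1 (8 cells). By contrast TCR-164B.4 had 0 cells in other animals and TCR-164B.5 had 1. With at least 2 transcripts in both chains, 2 members had a cell in the own thymus and 1 in another animal.

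Chains taken alone spread further. The TRB of each member was on at least 1 barcode in 12 to 14 of the 14 tables, and on 22 (TCR-160C.11) to 663 (TCR-164B.1 and TCR-164B.2) barcodes of other animals. Over 31 distinct TRB chains this number followed the TRB transcripts of the chain in its tumor (Spearman's rho 0.935, a description over chains that share tables and libraries). In the thymus of mouse-164B the TRB of TCR-164B.4 was on 8.96 and that of TCR-164B.5 on 8.49 per 10000 TRB barcodes, the second highest of the 7 thymus tables for both, behind mouse-155C thymus with 16.8 and 10.7. With TRB alone another animal's thymus thus ranked above the own thymus for these members, whereas cells with both chains numbered 8 and 9 in the own thymus and 0 and 1 in all tables of other animals.

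**Figure D5:**
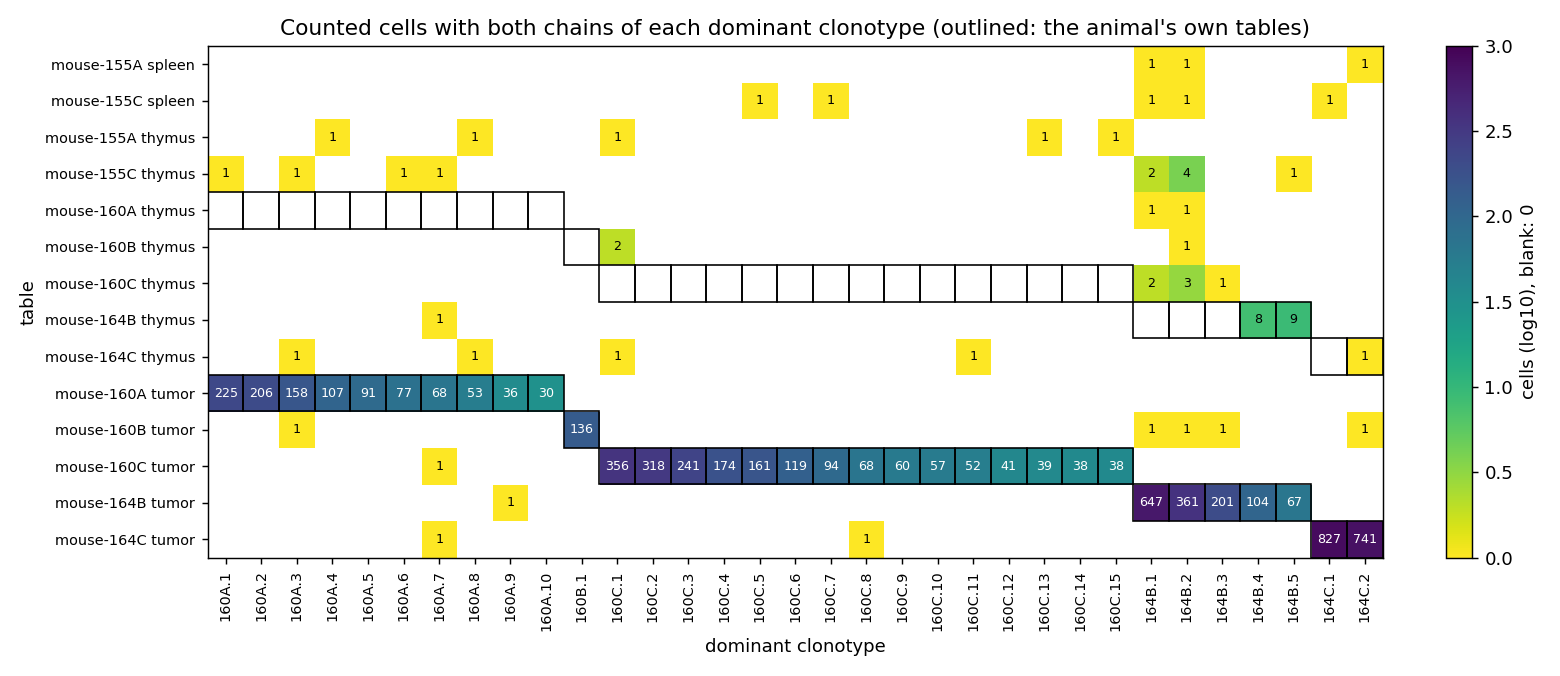
Counted cells with both chains of each dominant clonotype (horizontal axis) in each of the 14 tables (vertical axis), coloured on a log10 scale with the number printed and blank for 0, and with the tables of the clonotype's own animal outlined. The own thymus holds 8 cells of TCR-164B.4, 9 of TCR-164B.5 and 1 of TCR-164C.2, and no table of another animal holds more than 4 cells of a member.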

How the data were processed

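CD8+ T cells were barcoded in 8 sublibraries with a combinatorial indexing kit for TRA and TRB (Evercode TCR). The authors deposited per barcode the read count and transcript count of the first and further chains and a multiplet mark, and per clonotype a cell count and a fraction, the frequency among counted cells. The build GRCm39 is named in the submitters' processing notes, while for the vendor pipeline a version was not given in the sources used here. Animal and tissue were taken from the names of the tables, the sublibrary from the barcode suffix, and no sample was assigned to a genotype or tumor model, which the labels do not give. Doublets were treated only by the deposited multiplet mark.

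Members were matched on both CDR3 peptides without a multiplet mark. The members and the lists were chosen with earlier results of these data known. The 3 most frequent clonotypes of each tumor, members that share a chain or occur in the own thymus, and those at the end of a range were named, as were V and J genes used by 2 or more members. Any other item was singled out after its values were seen, as were TCR-160C.7 and TCR-164C.2 for their further chains. Nucleotide sequences came from the deposited chain annotation, which here covers 92.3% of counted cells in mouse-160B thymus, 40.4% in mouse-164B thymus, 29.8% in mouse-164C tumor and 100% elsewhere. V and J positions came from the GENCODE annotation of GRCm39, in which all 63 genes were found. Python 3.11.15, pandas 2.3.3, NumPy 2.4.6, SciPy 1.17.1 and matplotlib 3.10.9 were used, and the scripts were tested on simulated data. Alternatives changed the threshold, the transcripts required, the treatment of multiplet marks and further chains, the definition of a clonotype and the sublibraries used.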

Additional observations from a re-analysis of the deposited data

How the results depend on the processing

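Of 81 alternative values for 14 results, 64 stayed within the limit set for their kind, which for a count is wide (1.5 times), 15 moved past it and 2 changed sign. The number of dominant clonotypes, 33, became 20 at a threshold of 0.02 and 66 at 0.005, 45 with at least 2 transcripts in both chains, 46 with TRB alone and 43 weighted by transcripts, and lay between 31 and 35 when a sublibrary was left out. The share of cells, with a median over the tumors of 23.4%, became 20.5% and 29.7% at these thresholds, 40.2% with at least 2 transcripts in both chains, 16.6% with cells of 1 TRA and 1 TRB only, 27.2% with TRB alone, 41.1% weighted by transcripts, and 22.6% to 25.4% without a sublibrary. Members in the own thymus, 3, became 11 with TRB alone and 2 to 3 without a sublibrary, and those in other animals, 20, became 32 with TRB alone, 1 with at least 2 transcripts in both chains and 17 to 20 without a sublibrary. The median ratio of transcripts per cell to other cells, 2.5 for TRA and 1.75 for TRB, was 1.02 and 1.14 for reads per transcript, and that for TRB was 2.5 against 1-cell clonotypes. Multiplet marks fell from 26.9% to 25.5% with TRB alone. The sign changed for the median difference in mean TRB length, from -0.303 to 0.0789 amino acids when weighted by cells, and in cells with a further TRA, from 0.929 to -5.26 percentage points with at least 2 transcripts in both chains. The cause of these changes was not tested. In 1 alternative the member with the out-of-frame TRA was left out (32 members). Another counted members with a shared TRB once (31 members). Both were chosen after seeing the data, and frequencies were not recomputed. No paired analysis was possible because the labels give no groups or replicate numbers to pair, and the thymus and tumor tables of 1 animal were set side by side without a test. With 1 table per animal and tissue the spread between animals of a group is unknown, and the depth of the thymus tables limits what absence there can show.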
